A study of Mus musculus with 32 samples.

Results

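A set of 9 long noncoding RNAs that brain tissue is known to express was followed across the libraries of a mouse frontal cortex experiment. Members were the rows of the count table whose symbol was Meg3, Malat1, Neat1, Miat, Snhg11, Rian, Mirg, Peg13 or Snhg14. The rows were taken by name, and the names were chosen with earlier results of these data known. Of these 9 names, 7 had a row among the 33000 genes of the table. Rian and Snhg14 had none under their symbol or identifier and were not analysed here. All animals were 3 months old and on the C57BL/6 strain. WT mice were compared with mice homozygous for the GFAP-IL6 transgene, in which interleukin 6 is expressed under the promoter of Gfap, a gene of astrocytes, as a model of neuroinflammation. For each genotype, 4 libraries were made by 3'Pool-seq from each of 4 amounts of total RNA (50, 10, 1 and 0.5 ng) added to the reverse transcription reaction, 32 libraries in all. The design asks whether the amount of RNA changes what is measured, and whether the genotypes differ at each amount.

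Long noncoding RNAs are transcribed and often spliced and polyadenylated like messenger RNAs, but most act as RNA and many stay in the nucleus. Malat1 sits in nuclear speckles, the stores of splicing factors, and Neat1 is the scaffold around which paraspeckles form. Miat, also called Gomafu, is a neuronal nuclear RNA that binds splicing regulators such as Qk. Meg3, Rian and Mirg are expressed from the maternal chromosome of the imprinted Dlk1-Dio3 cluster. Peg13 is expressed from the paternal chromosome within an intron of Trappc9. Snhg11 and Snhg14 are hosts of small nucleolar RNAs, and Snhg14 also reaches across the imprinted Snrpn-Ube3a cluster. In 3'Pool-seq, reverse transcription starts from an anchored oligo-dT primer, so a transcript enters the library through its poly(A) tail or through a run of A within it. Mature Malat1 has no poly(A) tail, because its end is cut by RNase P and closed by a triple helix that holds an A-rich stretch of the RNA itself. Of the Neat1 isoforms, the short one is polyadenylated and the long one is not.

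The annotated loci, given here in GRCm38 from the GENCODE annotation, lie on 5 chromosomes. Meg3 (ENSMUSG00000021268.15) spans chr12:109541001-109571726 on the plus strand, and Mirg (ENSMUSG00000097391.6) lies downstream of it on the same strand at chr12:109729764-109749460. Malat1 (ENSMUSG00000092341.2, chr19:5795690-5802672) and Neat1 (ENSMUSG00000092274.2, chr19:5824708-5845478) are neighbours on the minus strand of chromosome 19. Miat (ENSMUSG00000097767.6) occupies chr5:112213228-112229395 on the minus strand and Snhg11 (ENSMUSG00000044349.13) chr2:158375638-158386145 on the plus strand. Peg13 (ENSMUSG00000106847.1) is a single exon at chr15:72805600-72810324 on the minus strand, and it overlaps no exon of Trappc9, in whose intron it lies on the same strand. The annotation classes Snhg11 as protein coding, Peg13 as sense intronic and the other 5 as lincRNA. Exons of Meg3, Malat1 and Miat overlap a gene on the opposite strand. The table has a row for Gm26906 over Meg3, with a mean of 0.085 CPM (counts scaled to a library total of 1000000) over the 32 libraries, and for Gm26953 over Miat, with no count. Gm37376, over Malat1, has no row here, and since the strand setting of the counting is not given in the sources used here, its reads cannot be told apart from those of Malat1.

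Because capture starts at runs of A, the longest annotated transcript of each RNA was searched for runs of at least 12 A on the sense strand. Such runs were present in Meg3 and Malat1 and in no transcript searched for the other 5. A run of at least 12 A was found in 12.6% of the longest transcripts of the 11747 genes tested at 50 ng that had an annotated transcript, and in 19.9% of the 5094 whose transcript was at least as long as the shortest of the 7. The lines below show the runs in capitals within 30 bases of transcript, read 5′ to 3′, because an oligo-dT primer could anneal to them. Shorter or interrupted runs of A were not searched. All positions refer to the annotated transcripts, and where the mature end of Malat1 lies relative to its run was not tested.
Malat1, 298 bases before the transcript end (chr19:5795979-5796008, minus strand): cctagctttAAAAAAAAAAAAgcaaaagac
Meg3, exon 1 (chr12:109545810-109545839, plus strand): caagaccAAAAAAAAAAAAAAAAcaaaaac
Meg3, exon 5 (chr12:109563257-109563286, plus strand): gaccattAAAAAAAAAAAAAAAgtcacagc
Meg3, exon 5 (chr12:109566873-109566902, plus strand): atctctttAAAAAAAAAAAAAttagctagt
The Malat1 run of 12 A lay at 95.6% of the 6983-base transcript, and the Meg3 runs of 16, 15 and 13 A at 2.89%, 41.8% and 66.7% of a transcript of 14548 bases. Where in these RNAs the reads started was not tested, since the table holds counts per gene.

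The hexamer AATAAA, the usual signal for polyadenylation, was sought in the last 50 bases before each annotated gene end. It was present for 5 of the 7, Meg3, Malat1, Snhg11, Mirg and Peg13, and absent for Neat1 and Miat, against 64.2% of the 11747 genes. Variants of this hexamer were not searched, so a gene end without it may hold another signal. The Neat1 lines are shown because its isoforms differ here, with the hexamer in capitals. The 3004-base short transcript holds it near its end, and the 20771-base long transcript does not.
Neat1, end of the short transcript (chr19:5842307-5842336, minus strand): tttacagcaaAATAAAggtttgagattgaa
Neat1, end of the long transcript (chr19:5824708-5824737, minus strand): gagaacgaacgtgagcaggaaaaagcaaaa
Malat1, end of the annotated transcript (chr19:5795690-5795719, minus strand): ttttatgaAATAAAaactaaatatctctca
Meg3, end of the annotated transcript (chr12:109571697-109571726, plus strand): gctttcAATAAAtttcttgttttaactaaa

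Totals ran from 261378 to 9840302 counts per library, and 3 counts, the smallest number taken as a floor, stood for 0.305 to 11.5 CPM. In every group replicate 2 had the lowest total. The label was checked on markers. Neuronal markers were present in every library at 50 ng, with a sum of 5745 to 6677 CPM. Of 3 striatum markers, only Drd2, a receptor, was at 0 in all 16 libraries at 50 and 10 ng. The sum of the 3 was low but not 0 at 50 ng, with 2.49 to 15.8 CPM in WT and 4.61 to 7.82 CPM in GFAP-IL6. Il6 itself was at 0 or 1 count in WT and at 4 to 22 counts in GFAP-IL6 libraries at 50 ng. Gfap lay at 8.89 to 14.5 CPM in WT and 30.6 to 74.0 CPM in GFAP-IL6. Of the GFAP-IL6 libraries at 50 ng, replicate 4 was lowest in both genes. It had 0.717 CPM of Il6, or 4 counts, against 4.92 to 8.40 CPM in the others. At 10 ng it was lowest in Gfap, with 25.5 CPM, but replicate 2 was lower in Il6, with 1.88 against 2.03 CPM. At 1 ng Il6 had 13 counts in WT replicate 3 and none in GFAP-IL6 replicates 2 and 3, and at 0.5 ng it had none in any of the 8 libraries. Gfap overlapped between genotypes at 1 ng and at 0.5 ng, where WT replicate 1 had 30.8 CPM and GFAP-IL6 replicate 1 had 9.61 CPM. The labels were thus not checked by these genes at the lowest inputs. Some libraries stood apart. GFAP-IL6 replicate 4 had 1597 CPM of Mbp, a myelin gene of oligodendrocytes, at 50 ng, against 3304 to 5229 CPM in the other 7 libraries. WT replicate 3 had 3355 CPM of Ttr, a choroid plexus gene, against 52.7 to 335 CPM in the others. These are whole-tissue libraries, in which fewer cells of a type and less RNA per cell cannot be told apart. Nothing in the labels states that the replicates were separate animals, so p-values measure the spread between these samples, which may be technical.

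Together the 7 RNAs took 1.29% to 2.85% of all counts, and Malat1 alone made up between 76.2% and 90.4% of that sum. At 50 ng they took 1.81% ± 0.214 (SD, n = 4) of counts in WT and 2.41% ± 0.391 in GFAP-IL6. At 10 ng the shares were 1.66% ± 0.153 and 2.28% ± 0.460. At 1 ng they were 1.55% ± 0.170 and 2.10% ± 0.324, and at 0.5 ng 1.61% ± 0.230 and 2.14% ± 0.382. The mean share was higher in GFAP-IL6 at each input, and the libraries of the genotypes overlapped at each input, with replicate 3 of GFAP-IL6 inside the range of WT each time. Replicate 3 had the lowest share of its group at every input and in both genotypes. The share of counts from mitochondrially encoded genes was also lowest in replicate 3 of every group, and it ran from 10.95% to 20.1% over all libraries. Its part in the shares was not tested. No p-value was computed for this sum.

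**Figure D1:**
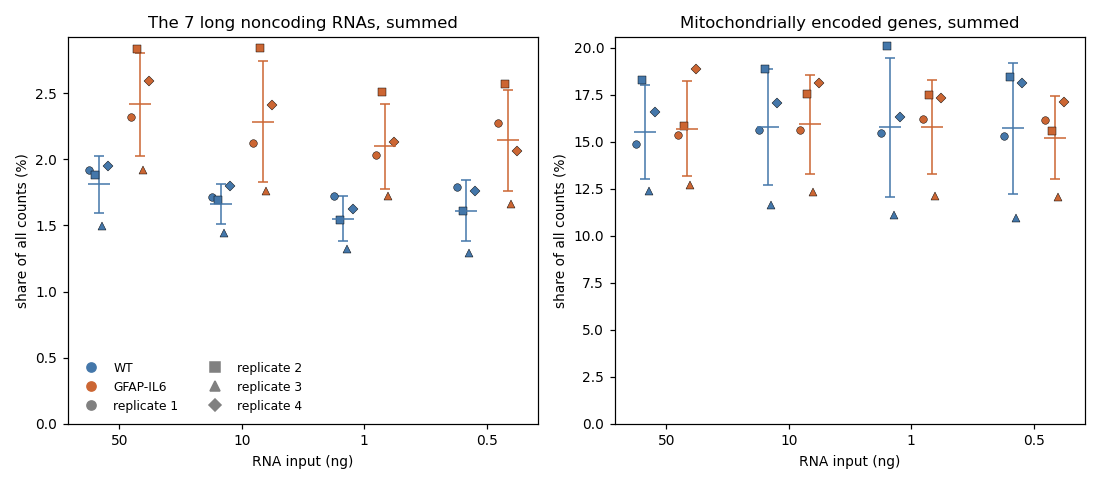
Share of all counts (%, vertical axis) taken by the 7 long noncoding RNAs (left) and by mitochondrially encoded genes (right) at each RNA input (ng, horizontal axis), with every library as a point and the mean ± SD of 4 libraries as a bar. The share of the long noncoding RNAs is 1.29% to 1.95% in WT and 1.66% to 2.85% in GFAP-IL6, and replicate 3 is lowest in every group on both sides.

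Of the 7 RNAs, 6 were above 1 CPM in 32 of 32 libraries. Mirg was above 1 CPM in 21 libraries and had no count in 8. Compared per kilobase of annotated length at 50 ng in WT, Malat1 had the highest level, 2320 ± 296 CPM per kb (SD, n = 4). Snhg11, with 90.3 ± 2.65 CPM per kb, and Meg3, with 81.6 ± 5.78, came next. Snhg11 libraries ranged from 87.0 to 93.1 CPM per kb and Meg3 libraries from 74.5 to 86.8, so that this pair was nearly equal. In GFAP-IL6 their ranges overlapped, with 109 to 183 CPM per kb for Snhg11 and 95.7 to 310 for Meg3. Peg13 had 9.71 ± 1.74 CPM per kb and Miat 2.93 ± 0.628. Neat1, at 0.751 ± 0.183, and Mirg, at 0.445 ± 0.280 CPM per kb, were lowest and their ranges overlapped. Since 3'Pool-seq reads come from the ends of transcripts, dividing by length lowers the rank of long RNAs. On the CPM scale, Meg3 stood above Snhg11 in every group.

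**Figure D2:**
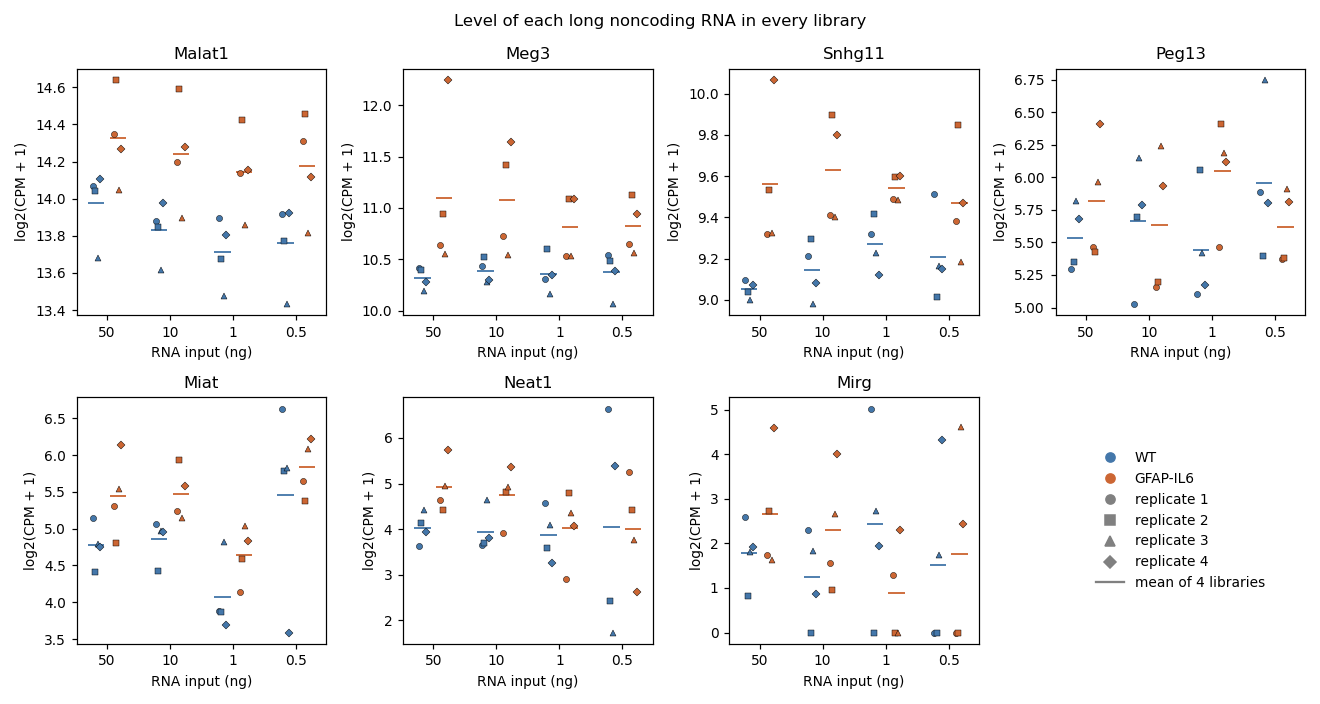
Level of each long noncoding RNA, as log2(CPM + 1) on a vertical axis that differs between panels and does not start at 0, in all 32 libraries by RNA input (ng), with 4 replicates per group as points and their mean as a line. Malat1 replicate 3 is the lowest library of its group at each input, Meg3 in GFAP-IL6 replicate 4 stands at 4865 CPM at 50 ng, and Neat1 and Miat in WT scatter most at 0.5 ng.

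Malat1, the most abundant of the set, was higher in 3 of 4 GFAP-IL6 libraries than in any WT library at each of the 4 inputs. At 50 ng, replicates 1 to 4 of WT had 17188, 16831, 13142 and 17641 CPM, and those of GFAP-IL6 had 20825, 25536, 16934 and 19726 CPM. At 10 ng the WT values were 15094, 14746, 12571 and 16109 CPM and the GFAP-IL6 values 18780, 24647, 15266 and 19855 CPM. Replicate 3 was lowest in both genotypes and replicate 2 highest in GFAP-IL6, at these inputs and at the lower ones. At 1 ng the range was 11393 to 15226 CPM in WT and 14863 to 21976 CPM in GFAP-IL6, and at 0.5 ng it was 11071 to 15538 and 14393 to 22473 CPM. The log2 fold change of GFAP-IL6 against WT was 0.32 ± 0.171 (SE), 0.40 ± 0.125, 0.42 ± 0.118 and 0.38 ± 0.139 at 50, 10, 1 and 0.5 ng. None of these passed the test (edgeR, the quasi-likelihood test, adjusted after Benjamini and Hochberg over all genes tested at that input, adjusted p = 0.835, 0.317, 0.900 and 0.9999), although the unadjusted p-values were 0.0755, 0.00311, 0.00165 and 0.0125. The size of the Malat1 difference thus stayed between 1.25 and 1.34 times at all inputs, and GFAP-IL6 replicate 3 overlapped WT each time.

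Neat1, the paraspeckle scaffold, was among the scarce RNAs of the set. At 50 ng it had 11.3, 16.5, 20.3 and 14.2 CPM in WT and 23.8, 20.5, 29.7 and 52.0 CPM in GFAP-IL6, and the genotypes did not overlap. The lowest GFAP-IL6 library was only just above the highest WT library. At 10 ng WT had 11.5, 11.9, 23.7 and 13.1 CPM and GFAP-IL6 had 14.03, 27.2, 29.4 and 40.1 CPM, so that the ranges overlapped. The log2 fold change was 1.04 ± 0.273 at 50 ng (edgeR, adjusted p = 0.187) and 0.86 ± 0.291 at 10 ng (edgeR, adjusted p = 0.405). Leaving out GFAP-IL6 replicate 4 gave 0.70 and 0.58 at these inputs. At 0.5 ng single libraries ranged from 2.32 to 98.96 CPM, or 2 to 119 counts, within WT alone. The estimate there was -1.03 ± 1.08 (edgeR, adjusted p = 0.9999), and at 1 ng it was 0.15 ± 0.775 (edgeR, adjusted p = 0.997).

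Miat had 34.3, 20.3, 26.7 and 26.0 CPM in WT at 50 ng and 38.5, 27.1, 45.7 and 69.7 CPM in GFAP-IL6, with replicate 2 lowest in both. At 10 ng the WT libraries had 32.5, 20.5, 30.3 and 30.1 CPM and the GFAP-IL6 libraries 36.9, 60.1, 34.3 and 46.6 CPM, without overlap. For Miat the log2 fold change was 0.74 ± 0.243 at 50 ng (edgeR, adjusted p = 0.550) and 0.57 ± 0.223 at 10 ng (edgeR, adjusted p = 0.538). Without GFAP-IL6 replicate 4 the value at 50 ng was 0.47. At 1 ng it was 0.57 ± 0.640 and at 0.5 ng 0.07 ± 0.632 (edgeR, adjusted p = 0.997 and 0.9999).

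In the main edgeR fits, Meg3 at 10 ng was the only call among the 7 by genotype. These fits used all 8 libraries of an input, the filter on low counts and no replicate block. With the block, or with 1 library left out, other members were called too, as given in the last section. At 50 ng replicates 1 to 4 had 1362, 1346, 1169 and 1245 CPM in WT and 1592, 1958, 1501 and 4865 CPM in GFAP-IL6. At 10 ng they had 1386, 1474, 1237 and 1259 CPM in WT and 1688, 2730, 1490 and 3202 CPM in GFAP-IL6. All GFAP-IL6 libraries lay above all WT libraries at both inputs, the lowest of them by little and replicate 4 by far. The log2 fold change was 0.74 ± 0.165 at 10 ng (edgeR, adjusted p = 0.0274) and 0.92 ± 0.269 at 50 ng (edgeR, adjusted p = 0.371). Neither log2 fold change reached 1. DESeq2 did not call Meg3 at 10 ng (adjusted p = 0.452), nor did a single edgeR fit of all 32 libraries (adjusted p = 0.99998). Without GFAP-IL6 replicate 4, which also had the low Mbp value, the estimate was 0.52 at 10 ng (edgeR, adjusted p = 0.276) and 0.37 at 50 ng (edgeR, adjusted p = 0.171). The call at 10 ng was also lost without GFAP-IL6 replicate 2 (edgeR, adjusted p = 0.197) and without any 1 of the 4 WT libraries (edgeR, adjusted p from 0.0540 to 0.128).

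At 1 ng Meg3 had 1262, 1550, 1144 and 1300 CPM in WT and 1484, 2169, 1484 and 2173 CPM in GFAP-IL6, and WT replicate 2 lay among the GFAP-IL6 values. At 0.5 ng it had 1493, 1435, 1072 and 1338 CPM in WT and 1606, 2230, 1511 and 1965 CPM in GFAP-IL6, again without overlap. The log2 fold change was 0.46 ± 0.163 and 0.42 ± 0.172 at these inputs (edgeR, adjusted p = 0.997 and 0.9999). WT values stayed between 1072 and 1550 CPM over all inputs. In GFAP-IL6 replicate 4 the value was 4865, 3202, 2173 and 1965 CPM at 50, 10, 1 and 0.5 ng, whereas in replicate 2 it was 1958, 2730, 2169 and 2230 CPM. Whether equal numbers mark the same RNA is not given in the labels.

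Mirg, a host of microRNAs in the same imprinted cluster, holds 14 annotated microRNA hairpins. Meg3 holds Mir770, and in the GENCODE annotation its exons also overlap Mir1906-1. The 2 hairpins of Mirg with any count, Mir453 and Mir496a, had means of 0.0533 and 0.0112 CPM over the 32 libraries. Mirg had 4.98, 0.752, 2.504 and 2.79 CPM in WT at 50 ng, and 2.32, 5.60, 2.08 and 23.1 CPM in GFAP-IL6. Replicate 4 of GFAP-IL6, which was also highest for Meg3, held 129 of the 152 counts in that group. For Mirg the log2 fold change was 1.53 ± 0.609 at 50 ng (edgeR, adjusted p = 0.786) and -0.14 without that library. At 10 ng GFAP-IL6 replicate 4 again stood at 14.9 CPM and the estimate was 1.68 ± 0.662 (edgeR, adjusted p = 0.538), or 0.60 without it. At the lower inputs Mirg did not pass the filter on low counts in the genotype comparisons. Its counts there were 48, 50 or 45 in 1 library each of WT at 1 ng, WT at 0.5 ng and GFAP-IL6 at 0.5 ng, and at most 12 in any other.

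Peg13, the paternally expressed RNA in the Trappc9 intron, showed no steady direction. At 50 ng it had 38.2, 39.9, 55.4 and 50.1 CPM in WT and 43.2, 42.0, 61.6 and 84.1 CPM in GFAP-IL6. The log2 fold change was 0.31 ± 0.217, -0.01 ± 0.224, 0.61 ± 0.403 and -0.42 ± 0.548 at 50, 10, 1 and 0.5 ng (edgeR, adjusted p = 0.836, 0.994, 0.997 and 0.9999). The genotypes overlapped at every input.

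Snhg11 was higher in all GFAP-IL6 libraries than in all WT libraries at 50, 10 and 1 ng. At 50 ng WT had 546, 525, 510 and 538 CPM and GFAP-IL6 had 638, 741, 640 and 1072 CPM. At 10 ng WT had 592, 627, 504 and 541 CPM and GFAP-IL6 had 681, 952, 676 and 890 CPM. At 1 ng WT had 638, 682, 599 and 556 CPM and GFAP-IL6 717, 773, 716 and 775 CPM, and the gap between the nearest libraries was smaller than the spread within WT. At 0.5 ng the ranges overlapped, with 516 to 729 CPM in WT and 580 to 922 CPM in GFAP-IL6. For Snhg11 the log2 fold change was 0.51 ± 0.177 at 50 ng (edgeR, adjusted p = 0.617) and 0.47 ± 0.139 at 10 ng (edgeR, adjusted p = 0.247). At 1 and 0.5 ng it was 0.26 ± 0.151 and 0.23 ± 0.198 (edgeR, adjusted p = 0.997 and 0.9999). Without GFAP-IL6 replicate 4 the value at 50 ng was 0.32.

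By count, 0 of the 7 passed an adjusted p-value of 0.05 at 50 ng, where 0.28% of the 11773 genes tested were called (edgeR). At 10 ng 1 of 7 passed, against 0.332% of 12043 genes. At 1 ng 0 of the 6 tested passed, against 0.0323% of 9276 genes, and at 0.5 ng 0 of 6, against 0.0117% of 8571 genes. DESeq2 called 0 of the 7 at each input. With no filter on low counts, edgeR called 3 of the 7 at 50 ng (Meg3, Neat1 and Mirg), against 93 of 18948 genes. It also called Malat1 at 1 ng, against 11 of 15519 genes, and at 0.5 ng, against 5 of 14594 genes. With the filter, the number with an unadjusted p under 0.05 (edgeR) was 5, 6, 2 and 2 at 50, 10, 1 and 0.5 ng. Over all genes it was 663, 901, 333 and 246. A positive log2 fold change was found in 23 of 26 tests of a member at an input. The share of positive values over all genes was not computed. These tests are not independent, since members were measured in the same libraries and same-numbered libraries at different inputs deviated alike in some pairs. The median log2 fold change over members tested was 0.74 at 50 ng, beside -0.0034 over all genes tested, and 0.36 without GFAP-IL6 replicate 4. At 10, 1 and 0.5 ng it was 0.57, 0.44 and 0.15. Members whose GFAP-IL6 libraries all lay above all WT libraries numbered 3 of 7 at 50 ng (2.17% of all genes tested), 3 at 10 ng (2.77%), 1 at 1 ng (1.68%) and 1 at 0.5 ng (1.47%). They were Meg3, Neat1 and Snhg11 at 50 ng, Meg3, Miat and Snhg11 at 10 ng, Snhg11 at 1 ng and Meg3 at 0.5 ng. No member had all GFAP-IL6 libraries below WT, and the share of all genes that did was not computed. Markers of other cells were compared at 50 ng, where all 5 astrocyte, 5 microglia and 3 endothelium markers had counts. Of these, 1 astrocyte marker, Gfap, was called (edgeR). The microglia sum was 185 to 211 CPM in WT and 201 to 320 CPM in GFAP-IL6, and the astrocyte sum was 449 to 532 and 546 to 734 CPM. The endothelium sum was 16.6 to 24.3 CPM in WT and 30.9 to 75.8 CPM in GFAP-IL6, without overlap and with replicate 4 highest. The neuronal sum was 5939 to 6677 CPM in WT and 5745 to 6351 CPM in GFAP-IL6. Their part in the differences above was not tested.

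**Figure D3:**
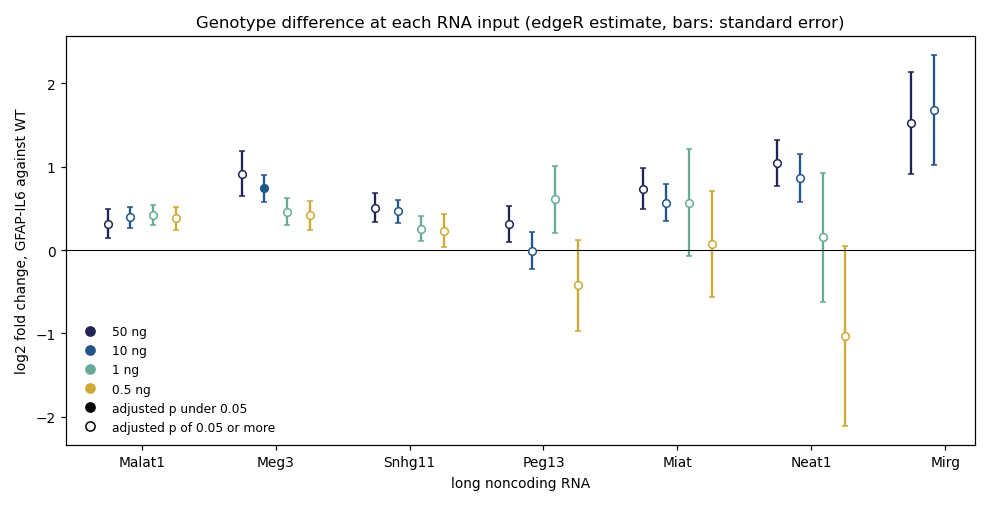
Log2 fold change of GFAP-IL6 against WT (vertical axis) for each long noncoding RNA at each RNA input, with 4 libraries per genotype. Bars are the standard error derived from the edgeR test statistic. Only Meg3 at 10 ng, 0.74, is filled as passing an adjusted p of 0.05, while Malat1 lies between 0.32 and 0.42 at all inputs with short bars and Neat1 runs from 1.04 to -1.03 with long ones.

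When the counts of the libraries with the same genotype and number were added over the 4 inputs, a comparison chosen after seeing the data, 0 of 7 were called, against 0.468% of 13450 genes (edgeR). The unadjusted p was under 0.05 for 5 of the 7 and for 1063 of all genes. Meg3 had a log2 fold change of 0.72 ± 0.179 (edgeR, adjusted p = 0.0745), Snhg11 one of 0.42 ± 0.130 (edgeR, adjusted p = 0.249) and Malat1 one of 0.37 ± 0.130 (edgeR, adjusted p = 0.394). Without GFAP-IL6 replicate 1 or replicate 3 the adjusted p of Meg3 was 0.0336 or 0.00507 (edgeR), and without replicate 4 the log2 fold change was 0.43 (edgeR, adjusted p = 0.369).

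Lower input did not move any of the 7 past the threshold. At 10 ng against 50 ng, averaged over genotypes, 0 of 7 were called and 0% of 12599 genes (edgeR), with 0 of the 7 and 523 of all genes at an unadjusted p under 0.05. DESeq2 called 18 genes and none of the 4 members to which it gave an adjusted p. At 1 ng 0 of 7 were called against 1.2% of 11290 genes, and at 0.5 ng 0 of 7 against 2.55% of 11406 genes (edgeR, and 0 of 7 by DESeq2). The estimates for the abundant RNAs were close to 0. For Malat1 they were -0.09 ± 0.110, -0.16 ± 0.105 and -0.12 ± 0.114 at 10, 1 and 0.5 ng on the log2 scale. For Meg3 they were 0.00 ± 0.176, -0.14 ± 0.178 and -0.14 ± 0.189, and for Snhg11 0.10 ± 0.114, 0.15 ± 0.115 and 0.08 ± 0.136. Miat had the lowest unadjusted p-values, with -0.73 ± 0.276 at 1 ng (edgeR, adjusted p = 0.242) and 0.74 ± 0.351 in the opposite direction at 0.5 ng (edgeR, adjusted p = 0.345).

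The difference in genotype effect between inputs was tested directly. At 10, 1 and 0.5 ng against 50 ng, 0 of 7 were called (edgeR, and 0 of 7 by DESeq2). Over all genes 0%, 0% and 0% were called by edgeR, with 174, 471 and 758 at an unadjusted p under 0.05, and 0, 8 and 165 were called by DESeq2. For Meg3 the genotype effect was -0.18 ± 0.354, -0.49 ± 0.357 and -0.55 ± 0.377 relative to 50 ng (edgeR, adjusted p = 0.9999, 0.9996 and 0.978). For Malat1 it was 0.06 ± 0.219, 0.07 ± 0.209 and 0.03 ± 0.227. The only unadjusted p under 0.05 among the 7 was that of Mirg at 1 ng (-4.13 ± 1.496, edgeR, adjusted p = 0.9996), where GFAP-IL6 replicate 4 held 129 counts at 50 ng and WT replicate 1 held 48 at 1 ng.

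The spread between libraries was larger at 0.5 ng than at 50 ng for the scarce Neat1 and Miat in WT. The median total was 3603629 counts per library at 50 ng and 1428120 at 0.5 ng. The SD of log2(CPM + 1) between the 4 WT libraries was 0.20, 0.15, 0.18 and 0.23 for Malat1 at 50, 10, 1 and 0.5 ng. It was 0.10, 0.12, 0.18 and 0.21 for Meg3 and 0.04, 0.14, 0.13 and 0.21 for Snhg11. The median over the 8692 genes with a mean of at least 10 CPM was 0.20, 0.24, 0.62 and 0.96. Neat1 in WT had 0.33, 0.46, 0.58 and 2.35, and Miat 0.30, 0.29, 0.51 and 1.31. In GFAP-IL6 Neat1 had 0.57, 0.61, 0.81 and 1.11, whereas Miat went the other way, with 0.55, 0.36, 0.39 and 0.39. In GFAP-IL6 the SD of Meg3 was 0.79, 0.53, 0.32 and 0.26, largest at 50 ng, where replicate 4 stood apart. The 3 abundant RNAs were thus measured at 0.5 ng with an SD of 0.21 to 0.28 in either genotype, and no test of this difference from other genes was made.

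**Figure D4:**
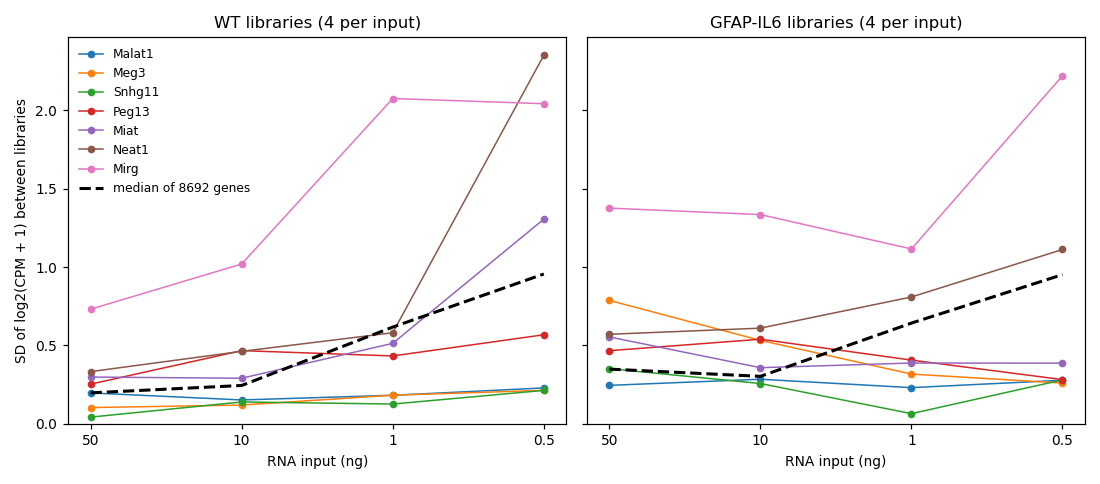
Spread between the 4 libraries of a group, as the SD of log2(CPM + 1) (vertical axis), at each RNA input (ng, horizontal axis) in WT (left) and GFAP-IL6 (right), with a line per long noncoding RNA and a dashed line for the median of 8692 genes. At 0.5 ng Malat1, Meg3 and Snhg11 lie at 0.21 to 0.28, under the median of 0.96 in WT and 0.95 in GFAP-IL6, and Neat1 in WT reaches 2.35.

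Which RNAs moved together between libraries was described by Pearson's r of log2(CPM + 1) over the 16 libraries at 50 and 10 ng, after subtracting the mean of each group. Libraries with the same number at both inputs deviated alike in some pairs, so the points are not independent, and depth and base composition, which all genes of a library share, were not separated. Since GFAP-IL6 replicate 4 stood apart, r is also given over the 14 libraries without it. Meg3 and Snhg11 were alike, with r = 0.96, and 0.94 without that replicate, and Meg3 ranked as the gene second most like Snhg11 among 8691. The genes most like Meg3 were Map2 (r = 0.97, and 0.93 without), a microtubule protein of dendrites, Qk (0.97 and 0.86), a splicing regulator, and Camk2a (0.97 and 0.85), a kinase of excitatory synapses. Snhg11 was also like Pnisr (0.97 and 0.94) and Ankrd12 (0.96 and 0.93). Malat1 was most like Golgb1 (0.94 and 0.97), a protein of the Golgi, and Dhx36 (0.91 and 0.92), a helicase. Meg3 with Malat1 gave r = 0.33, and 0.82 without GFAP-IL6 replicate 4. Peg13 went with Tollip (0.96 and 0.96), and Malat1 with Peg13 had r = -0.63, and -0.70 without. Neat1 was most like A830039N20Rik (0.95 and 0.94), a noncoding RNA, and Miat most like Unc5a (0.90 and 0.90), a netrin receptor.

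**Figure D5:**
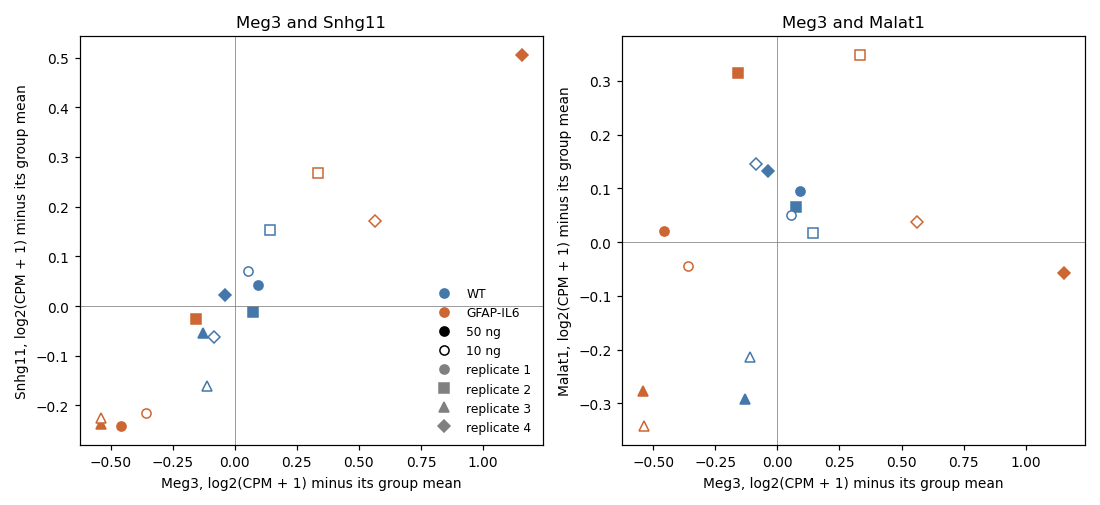
Deviation of Snhg11 (left) and Malat1 (right) from the group mean against that of Meg3, both in log2(CPM + 1), in the 16 libraries at 50 and 10 ng. Snhg11 follows Meg3 over the whole range with r = 0.96, whereas the pair of GFAP-IL6 replicate 4 libraries lies far to the right of the others for Malat1, with r = 0.33 with them and 0.82 without.

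Neighbours and partners were counted from fixed lists, and in them DESeq2 called by genotype a single gene, Mir124a-1hg, a host of microRNAs, at 10 ng. It is named because it was called, after its values were seen. Of the 8 neighbours in the Dlk1-Dio3 cluster, 5 were tested at 50 ng and 10 ng, 4 at each lower input, and 0 were called in any genotype comparison (edgeR, 0 at an unadjusted p under 0.05). Their median log2 fold change was 0.18 at 50 ng and 0.04 at 10 ng, beside 0.92 and 0.74 for Meg3. Of the 8 neighbours in the Snrpn-Ube3a cluster 3 were tested at each input and 0 called, with medians of 0.00 and 0.05 at 50 and 10 ng (edgeR, 0 at an unadjusted p under 0.05). Of the 5 neighbours of Peg13, 4 were tested and 0 called at each input (edgeR, with 0, 1, 1 and 0 at an unadjusted p under 0.05). Of 16 proteins of nuclear speckles and paraspeckles, 15 were tested at 50 ng, 16 at 10 ng and 15 at each lower input, and 0 were called (edgeR, with 1, 1, 2 and 1 at an unadjusted p under 0.05). Their median was 0.11 at 50 ng and 0.15 at 10 ng. Of 37 other noncoding RNAs listed, 19 had a row and 12, 13, 9 and 8 were tested at 50, 10, 1 and 0.5 ng, of which 0 were called (edgeR, with 2, 4, 1 and 0 at an unadjusted p under 0.05). With input as the comparison, edgeR called 1 gene of these lists. This was Snhg12, a host of small nucleolar RNAs, with 0.85 ± 0.210 on the log2 scale at 1 ng against 50 ng (edgeR, adjusted p = 0.0384). DESeq2 called it too, and also Chrac1, a neighbour of Peg13, at 1 ng and Wdr25, a neighbour of Meg3, at 0.5 ng, which are named because they were called.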

How the data were processed

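Gene expression was measured by 3'Pool-seq in 32 libraries of mouse frontal cortex, 4 for each of 2 genotypes and 4 RNA inputs. Reverse transcription was primed with anchored oligo-dT carrying an index, and samples were pooled before tagmentation. According to the study's methods and the submitters' processing notes, the authors trimmed poly(A) stretches, aligned reads with STAR 2.4 to the mouse genome and deposited raw counts per gene from featureCounts. The strand setting is not given in the sources used here.

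From the deposited counts, CPM was computed by scaling each library to a total of 1000000. Genotypes were compared within each input, and inputs and the interaction over the 16 libraries of a pair of inputs, with the edgeR 4.0.16 quasi-likelihood test (TMM normalization, filterByExpr, R 4.3.3) and Benjamini-Hochberg adjustment over all genes tested. A gene was called at an adjusted p under 0.05. Scripts were tested on simulated data. The members and lists were chosen with earlier results of these data known. All members were named. For each of the 6 abundant enough, the 3 genes with the highest r to it were listed, and some of these were named. DESeq2 1.42.0, limma 3.58.1 (voom), other size factors, no filter, a replicate block, a single fit and leaving out libraries were the alternatives. Libraries were left out singly in the genotype comparisons, and all of a replicate number together for inputs and the interaction. Annotation and transcripts came from GENCODE on GRCm38, and the longest transcript stood for the gene, since no genome sequence was used. The floor of 3 counts covers counting error only. Values after ± are the SD between libraries or the SE of an edgeR estimate. That SE was derived from the log2 fold change and the F statistic of the quasi-likelihood test. Over the 48 pairs of replicates in a group, the chi-square of the counts over genes with a sum of at least 30 was 2.51 to 63.4 per degree of freedom, where sampling noise gives 1, so no library was counted as a repeat.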

Additional observations from a re-analysis of the deposited data

Results flagged for a closer look

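Of 64 sets of 4 libraries, 6 had a library far from the other 3, where chance alone gives about 1 in 20. Meg3 in GFAP-IL6 replicate 4 at 50 ng stood at 4865 CPM, above 1501 to 1958 CPM in the other 3 libraries. The same library had 23.1 CPM of Mirg, from the same imprinted cluster, against 2.08 to 5.60 CPM, and the lowest Mbp value of its group. Neat1 in WT replicate 3 at 10 ng stood at 23.7 CPM, against 11.5 to 13.1 CPM. Miat in WT replicate 3 at 1 ng stood at 27.3 CPM, against 11.9 to 13.7 CPM. Mirg in WT replicate 4 at 0.5 ng stood at 19.01 CPM, or 50 counts, and 2 of the other 3 libraries had none. The summed share of the long noncoding RNAs in WT replicate 3 at 50 ng was 1.49%, below the other 3 libraries at 1.88% to 1.95%, and this library also had 3355 CPM of Ttr. Whether these values have a common source was not tested.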

How the results depend on the processing

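No member was called in an input or interaction comparison under any alternative run, although DESeq2 gave an adjusted p to only 4 of 7 at 10 ng against 50 ng. Of 810 alternative log2 fold changes of members, 747 kept direction and side of the threshold, 44 changed sign, 11 newly passed and 8 no longer did. With no filter on low counts edgeR called 3 members at 50 ng (adjusted p of 0.000288 for Meg3, 0.00706 for Neat1 and 0.0366 for Mirg), 1 at 1 ng and 1 at 0.5 ng (both Malat1). Over all genes it called 93 of 18948, 11 of 15519 and 5 of 14594 at these inputs. At 10 ng DESeq2 and the single fit of all 32 libraries called 0. Leaving out 1 library gave 0 to 2 members called at 10 ng. Malat1 joined Meg3 there without GFAP-IL6 replicate 3 (edgeR, adjusted p = 0.0178). With counts summed over inputs, leaving out 1 sum gave 0 to 1 members called. The causes were not tested. Without mitochondrial counts in the total the shares were 2.15%, 1.98%, 1.85% and 1.92% in WT at 50, 10, 1 and 0.5 ng. In GFAP-IL6 they were 2.87%, 2.73%, 2.499% and 2.53% at these inputs.

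Same-numbered libraries of the genotypes correlated above 0.1 in 2, 1, 0 and 0 of 4 pairs at 50, 10, 1 and 0.5 ng, so the numbers were not taken to pair them. Between inputs this held in 5, 3 and 1 of 8 pairs for 10, 1 and 0.5 ng against 50 ng. With the replicate block, edgeR called 3 members at 10 ng (Meg3, Malat1 and Snhg11), 1 at 1 ng (Malat1) and as many as without it elsewhere, and 77 genes in place of 40 at 10 ng. With the block the input estimate was -0.0039 for Peg13 at 10 ng, -0.32 for Neat1 and -1.05 for Mirg at 0.5 ng, a change of sign that voom without the block gave too.

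Against 50 ng, the estimate of Meg3 at 10 ng turned to -0.0186 with no filter and -0.0153 in the single fit. With voom the sign turned for Miat (-0.0155) and Peg13 (-0.0139) at 10 ng, Peg13 (-0.0354) at 1 ng, Neat1 (-0.46) and Mirg (-0.48) at 0.5 ng, and the interaction of Miat at 0.5 ng (0.11).

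Leaving out 1 library turned the sign of these genotype estimates: Peg13 at 10 ng (-0.21 to 0.14), Miat at 0.5 ng (-0.27 to 0.56), Neat1 at 1 ng (-0.10 to 0.48) and 0.5 ng (-1.70 to 0.12), and Mirg at 50 ng (-0.14 to 1.90). In the summed comparison, leaving out 1 sum over the inputs turned Peg13 (-0.026 to 0.22) and Mirg (-0.16 to 1.26). For input and interaction, all libraries of 1 replicate number were left out together, from both genotypes and both inputs. This turned these input estimates: Meg3 (-0.11 to 0.18), Miat (-0.11 to 0.11) and Peg13 (-0.12 to 0.11) at 10 ng, Meg3 (-0.28 to 0.085), Mirg (-0.93 to 0.021) and Peg13 (-0.16 to 0.26) at 1 ng, and Meg3 (-0.24 to 0.12), Snhg11 (-0.0070 to 0.21), Neat1 (-0.72 to 0.65) and Mirg (-0.52 to 0.95) at 0.5 ng. Interactions turned for Meg3 (-0.37 to 0.14), Miat (-0.49 to 0.10) and Snhg11 (-0.11 to 0.056) at 10 ng, Miat (-0.34 to 0.046) at 1 ng, and Meg3 (-0.72 to 0.013) and Malat1 (-0.0067 to 0.056) at 0.5 ng.

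Over all genes and alternatives the number called was 3 to 93 at 50 ng, 4 to 77 at 10 ng, 2 to 13 at 1 ng and 1 to 655 at 0.5 ng by genotype, against 33, 40, 3 and 1 as reported. By input it was 0 to 136, 43 to 442 and 89 to 1022 at 10, 1 and 0.5 ng, against 0, 136 and 291. Depth limits Mirg most, with under 3 counts in 11 of 32 libraries.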
